A study of Homo sapiens with 6 samples.

Results

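Mitosis depends on a set of proteins that cells make mainly as they approach division. Kinesins are motors that build, bridge and shorten spindle microtubules, and the kinetochore is the protein assembly on each centromere that those microtubules grip. The spindle checkpoint holds the anaphase-promoting complex, a ubiquitin ligase, inactive until every kinetochore is attached, after which separase cuts the sister chromatids apart and an actomyosin ring divides the cell. Transcription of many of these genes in G2 phase is known to need the MuvB core with B-MYB and FOXM1, which are themselves on the list described here.

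The list holds 51 genes, of 60664 in the table, chosen by name: 11 mitotic kinesins, 12 kinetochore genes, 15 genes of the checkpoint, the mitotic kinases and mitotic exit, 11 of the spindle and cytokinesis, and 2 transcription factors. RNA-seq compared cells carrying a short hairpin RNA against PDGFC (shPDGFC, 3 libraries) with cells carrying the hairpin named shNC (3 libraries). PDGFC encodes a secreted ligand of the PDGF receptors. Both groups are labelled LNCaP, a human prostate cancer line, with LNCaPE in the sample titles, and the design text calls them LNCaP-EnzaR, cells resistant to the antiandrogen enzalutamide that stably carry the hairpin. Both grew in DMEM with serum. The labels speak of pooled RNA and do not say whether replicates were separate cultures or clones. The p-values therefore reflect the spread of these 6 libraries alone, and that spread could be technical.

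Library totals, as implied by the steps of the deposited values, lay between 17360455 and 20905911 reads in shPDGFC and between 18258988 and 23930217 reads in shNC. PDGFC itself was at 3.0, 2.43 and 2.52 RPKM in the shPDGFC libraries, against 8.19, 8.71 and 8.13 RPKM in the shNC libraries, which do not overlap. Mitochondrial genes took 4.20, 4.68 and 4.20% of reads in the shPDGFC libraries and 3.75, 4.08 and 3.88% in the shNC libraries, so this share moved with the groups, and its part in the results below was not tested. Of 9 prostate luminal markers, KLK3 and KLK2 were at or near 0, with 0 reads over the shPDGFC libraries and 1 read each over the shNC libraries. FOXA1, HOXB13, KRT8 and KRT18 were expressed. Endothelial and leukocyte markers did not exceed 0.137 RPKM in any library. Other markers moved with the groups, and not always alike within a cell type. KRT18 averaged 77.2 RPKM in shPDGFC and 60.7 RPKM in shNC, and the neuroendocrine marker CHGA 2.13 RPKM in shPDGFC and 1.61 RPKM in shNC. The fibroblast marker LUM averaged 7.96 RPKM in shPDGFC and 11.3 RPKM in shNC. The fibroblast gene COL1A1 leaned the same way as LUM, at 5.14 RPKM in shPDGFC and 6.01 RPKM in shNC. Its groups did not overlap, but it fell just short of the threshold (log2 change -0.19; limma, adjusted p = 0.0502). The fibroblast gene COL1A2 had 1 read in shPDGFC and 3 in shNC. COL1A2, DCN and PDGFRB were too low to be tested. Of the other neuroendocrine markers, SYP averaged 6.62 RPKM in shPDGFC and 7.41 RPKM in shNC (log2 change -0.14, adjusted p = 0.055), and ENO2 (log2 change 0.01) and INSM1 (0.0006) did not pass. The part of these markers in the results was not tested.

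The mitotic genes were abundantly expressed in both groups. Levels are given in RPKM, reads per kilobase of gene scaled to library size, so that genes of unequal length can be set side by side. In the 49 genes that passed the filter on low values (3 or more libraries at 1 RPKM or above), the mean over the 6 libraries ran from 8.28 RPKM for FZR1 to 188.5 RPKM for PTTG1, with a median of 37.6 RPKM, against a median of 8.43 RPKM over all 15337 genes tested. Every tested member had at least 344 reads in every library. Same-group libraries differed little, by a median coefficient of variation of 2.31% over the members and groups, against 4.21% over all genes tested. Summed over the 49 tested genes, the level was 2376, 2342 and 2349 RPKM in the shPDGFC libraries and 2295, 2298 and 2272 RPKM in the shNC libraries, which do not overlap. By role, the sums of the kinetochore genes did overlap (438.9 RPKM in shPDGFC replicate 2, 439.2 RPKM in shNC replicate 1). So did those of the spindle and cytokinesis genes (492.9 RPKM in shPDGFC replicate 2, 497.2 RPKM in shNC replicate 2). Sums of the other role groups did not overlap, with shPDGFC above.

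**Figure D1:**
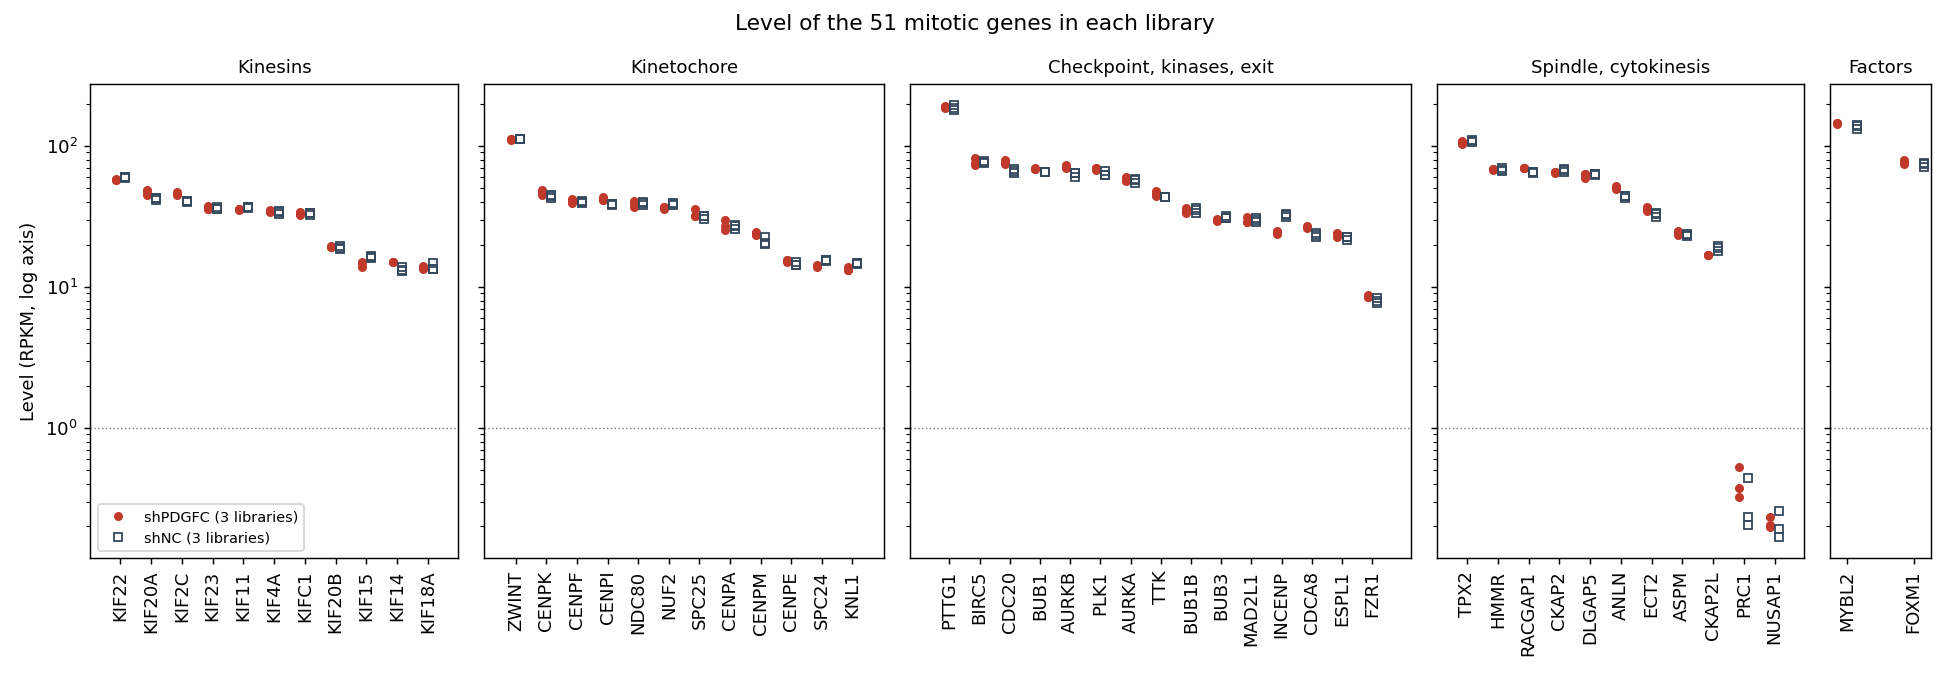
Level of each of the 51 genes in RPKM on a log axis, by role, with 1 point per library (filled circles, shPDGFC; open squares, shNC) and a dotted line at an RPKM of 1. The groups lie close together for nearly every gene, PTTG1 is the most abundant, and PRC1 and NUSAP1 sit under 1 RPKM in all 6 libraries.

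PRC1 and NUSAP1 could not be tested. PRC1, which bundles microtubules of the central spindle, was at 0.375, 0.529 and 0.324 RPKM in the shPDGFC libraries, against 0.204, 0.232 and 0.440 RPKM in the shNC libraries, on 74 reads in shPDGFC and 59 in shNC. NUSAP1, a microtubule-binding protein of the spindle, was at 0.204, 0.233 and 0.198 RPKM in the shPDGFC libraries, against 0.259, 0.169 and 0.192 RPKM in the shNC libraries, on 28 reads in shPDGFC and 31 in shNC. Both lie under 1 RPKM in all 6 libraries, unlike every other member, and the groups overlap for both. In GENCODE version 29, 57.6% of the exon bases of PRC1 (3181 of 5525) and 62.2% of those of NUSAP1 (1787 of 2875) are also exon bases of another gene on the same strand, ENSG00000284946 (2.60 RPKM over the 6 libraries) and ENSG00000285920 (listed at 0 in all 6). How reads of shared bases were counted is not given in the sources used here, so both levels are uncertain.

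The promoters of the list share letters that the choice of genes did not use. The known cell-cycle genes homology region (CHR) reads TTTGAA, less often TTTAAA, and usually lies near the start site together with CCAAT boxes. RefSeq promoters (GRCh38.p14, 250 bases before to 50 after the start) were at hand for 42 of the 51 genes. TTTGAA or TTTAAA, on either strand, was present in 34 of the 42 (81.0%), against 24.3% of 27305 promoters of the same length. TTTGAA alone was in 30 of 42 (71.4%, against 15.4% of all) and CCAAT, on either strand, in 31 of 42 (73.8%, against 35.7%). In 1 promoter, that of CDCA8, a CHR-type match shared bases with a CCAAT match. CHR-type letters were in the promoters of 8 of the 11 genes with a promoter that were higher in shPDGFC, 3 of the 4 that were lower and 21 of the 25 that did not pass, so the letters were common in all 3 classes. These matches describe the window and show no binding. Some windows lie inside the gene as GENCODE places it. Among them are those of AURKB and CENPI, both higher and without a CHR-type match, and that of PLK1, which holds matches. For such genes the bases before the GENCODE start were not searched.

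The promoters below are printed because their genes fell or rose furthest among the members (INCENP, CDC20), belong to the same complex as INCENP (AURKB, CDCA8) or encode another mitotic kinase (PLK1). Capitals mark the CHR-type and CCAAT matches on either strand, and each sequence runs 5′ to 3′ on the gene's strand. INCENP lies at chr11:62123761-62124060 on the plus strand, AURKB at chr17:8210176-8210475 on the minus strand, CDCA8 at chr1:37692266-37692565, CDC20 at chr1:43358731-43359030 and PLK1 at chr16:23678639-23678938, the last 3 on the plus strand.
INCENP: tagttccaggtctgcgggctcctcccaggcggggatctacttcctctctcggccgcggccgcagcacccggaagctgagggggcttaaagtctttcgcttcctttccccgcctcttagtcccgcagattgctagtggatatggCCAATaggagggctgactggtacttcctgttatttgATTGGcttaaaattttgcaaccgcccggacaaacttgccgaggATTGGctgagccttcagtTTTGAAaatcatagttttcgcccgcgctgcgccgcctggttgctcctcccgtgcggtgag
AURKB: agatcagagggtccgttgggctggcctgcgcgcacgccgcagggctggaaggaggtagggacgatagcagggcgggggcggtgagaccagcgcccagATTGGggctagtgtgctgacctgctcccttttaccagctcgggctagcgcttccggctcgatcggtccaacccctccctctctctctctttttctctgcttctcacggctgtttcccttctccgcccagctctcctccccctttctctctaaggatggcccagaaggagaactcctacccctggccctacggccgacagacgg
CDCA8: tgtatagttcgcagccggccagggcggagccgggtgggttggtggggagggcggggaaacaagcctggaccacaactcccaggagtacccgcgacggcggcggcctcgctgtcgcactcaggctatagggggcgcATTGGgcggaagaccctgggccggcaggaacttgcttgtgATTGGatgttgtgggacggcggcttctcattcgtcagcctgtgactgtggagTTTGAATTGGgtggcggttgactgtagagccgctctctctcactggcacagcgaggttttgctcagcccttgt
CDC20: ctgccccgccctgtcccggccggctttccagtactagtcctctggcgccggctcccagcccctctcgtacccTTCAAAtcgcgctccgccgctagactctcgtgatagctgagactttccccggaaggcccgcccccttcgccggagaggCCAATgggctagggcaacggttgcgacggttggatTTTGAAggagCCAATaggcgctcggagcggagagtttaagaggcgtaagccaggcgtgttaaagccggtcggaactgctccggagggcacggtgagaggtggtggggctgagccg
PLK1: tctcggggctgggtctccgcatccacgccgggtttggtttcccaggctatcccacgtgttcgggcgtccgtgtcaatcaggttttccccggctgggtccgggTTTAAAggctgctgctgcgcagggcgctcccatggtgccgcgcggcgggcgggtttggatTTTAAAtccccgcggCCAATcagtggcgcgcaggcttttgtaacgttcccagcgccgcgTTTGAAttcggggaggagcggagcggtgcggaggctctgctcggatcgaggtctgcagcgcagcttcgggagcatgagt
INCENP and CDCA8 each hold 1 TTTGAA and 3 CCAAT matches, although their transcripts went in opposite directions. AURKB holds 1 CCAAT and no CHR-type match in this window. That window lies wholly inside the gene as GENCODE places it (8204733 to 8210600). Bases before that gene start were not searched. AURKA, BIRC5, BUB3, CENPM, FOXM1, KNL1, RACGAP1, TPX2 and TTK were not looked at here.

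Which mitotic genes differed between shPDGFC and shNC cells was tested with limma on log2(RPKM + 1) over all 15337 genes, with Benjamini-Hochberg adjustment, and genes are called higher or lower only at an adjusted p under 0.05. In all, 13 members were higher and 5 lower in shPDGFC of 49 tested, and 31 did not pass. The share higher was 26.5%, against a background of 14.2% over all genes tested, and the share lower 10.2%, against 15.6%. Both directions together made 18 members (36.7%), against 29.8%. Libraries of the groups did not overlap in 28 members (57.1%), against 46.8% of all genes, with shPDGFC above in 19 (against 21.7% of all genes) and below in 9 (against 25.1%). Changes were small. The log2 changes ran from -0.39 to 0.22 with a median of 0.03, where all genes tested had a median of -0.01, and only INCENP changed at least 1.25-fold with a call, against 7.65% of all genes. In RNA from whole cultures, a larger share of cells in G2 and mitosis and more mRNA per such cell cannot be told apart. The 13 higher calls became 9 without shPDGFC replicate 3, 10 without shPDGFC replicate 1 or any 1 shNC library, and 15 without shPDGFC replicate 2. The 5 lower calls became 2 without shNC replicate 3 and 3 without shNC replicate 1. Over all genes, leaving out single libraries turned the 2173 higher calls into 1524 to 1841 and the 2398 lower calls into 1653 to 2026.

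**Figure D2:**
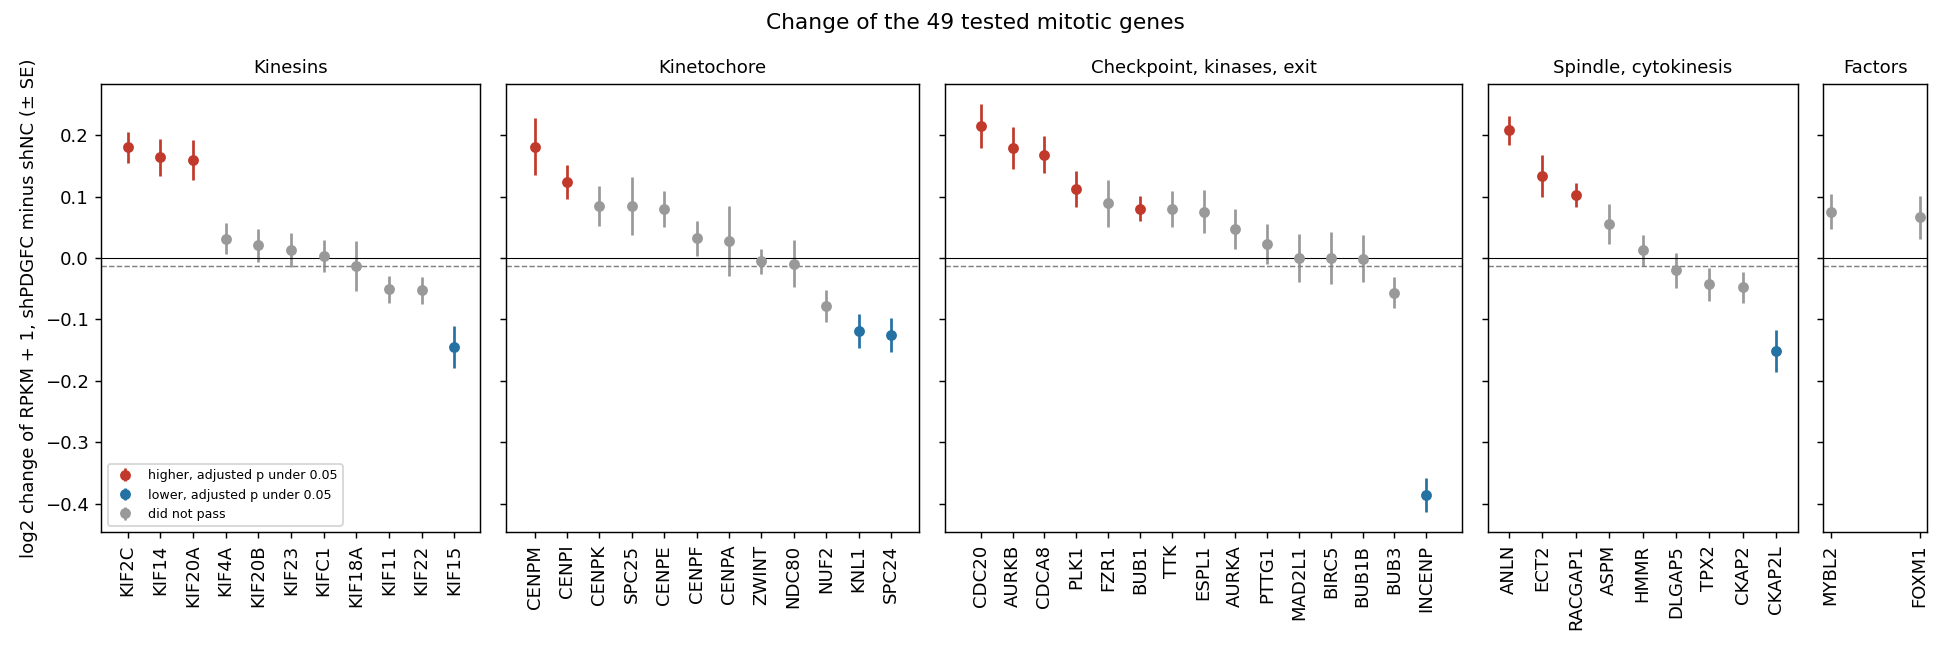
Change of each of the 49 tested genes (points, log2 of RPKM + 1, shPDGFC minus shNC; bars, SE of the limma fit; 3 libraries in each group), by role, with the median of all tested genes as a dashed line. INCENP stands lowest at -0.39, CDC20 and ANLN highest at 0.22 and 0.21, and 31 grey points did not pass.

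Among the kinesins 3 rose, 1 fell and 7 did not pass, which is 27.3% higher and 9.09% lower against 14.2% and 15.6% of all genes. KIF2C, a kinesin-13 that depolymerises microtubules at centromeres to free wrong attachments, was at 47.2, 45.2 and 45.5 RPKM in the shPDGFC libraries, against 40.5, 40.6 and 40.1 RPKM in the shNC libraries. All 3 shPDGFC libraries exceeded all 3 shNC libraries. Its level averaged 45.96 ± 1.1 RPKM in shPDGFC and 40.4 ± 0.27 RPKM in shNC (SD, n = 3 each), a log2 change of 0.18 ± 0.025 (SE; limma, adjusted p = 0.0027). KIF14, which binds PRC1 and works at the midbody in cytokinesis, was at 15.1, 15.1 and 14.99 RPKM in the shPDGFC libraries, against 13.03, 13.2 and 13.8 RPKM in the shNC libraries. The shPDGFC libraries lay close together and above every shNC library (log2 change 0.16, adjusted p = 0.0072).

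KIF20A (MKLP2), which carries the chromosomal passenger complex to the central spindle at anaphase, was at 45.3, 48.4 and 48.2 RPKM in the shPDGFC libraries, against 42.6, 42.9 and 41.2 RPKM in the shNC libraries. The groups did not overlap (log2 change 0.16, adjusted p = 0.010). Its exons share 132 bases with BRD8 and 68 with CDC23 on the opposite strand, 3.34% and 1.72% of its exon bases, and both neighbours also rose (log2 change 0.26, adjusted p = 0.0012, and 0.11, adjusted p = 0.034). Whether the counting used strand is not given in the sources used here, and without strand, reads of the shared bases cannot be told apart. Of the 18 members that passed, 5 share exon bases with an opposite-strand gene averaging 1 RPKM or more. The largest share with any 1 such gene was 4.80% of the member's own exon bases. With less expressed opposite-strand genes, PLK1 shares 11.6% (ENSG00000261266, 0.61 RPKM) and CKAP2L 9.08% (NT5DC4, 0.17 RPKM).

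KIF15, a kinesin-12 that can hold spindle poles apart when KIF11 is blocked, was the kinesin that fell, at 14.9, 14.96 and 13.9 RPKM in the shPDGFC libraries, against 16.2, 15.9 and 16.5 RPKM in the shNC libraries. Every shPDGFC library was below every shNC library (log2 change -0.14, adjusted p = 0.019). The call was lost without shNC replicate 1 (adjusted p = 0.054) or shNC replicate 3 (0.067). KIF11 itself, the kinesin-5 that pushes the poles apart, was at 35.7, 35.8 and 35.1 RPKM in the shPDGFC libraries, against 37.2, 36.9 and 36.4 RPKM in the shNC libraries, with every shPDGFC value below the shNC range but not past the test (log2 change -0.05, adjusted p = 0.12).

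The remaining kinesins moved by less than 0.06 on the log2 scale. KIF22, a chromokinesin that pushes chromosome arms away from the poles, was the most abundant of the 11 listed kinesins, at 58.8, 57.1 and 57.2 RPKM in the shPDGFC libraries, against 60.3, 59.3 and 60.01 RPKM in the shNC libraries, without overlap between the groups but not past the test (log2 change -0.05, adjusted p = 0.12). KIF18A, which damps chromosome movement at the metaphase plate, was the least abundant of the 11, at 13.7, 13.4 and 14.1 RPKM in the shPDGFC libraries, against 13.5, 14.7 and 13.4 RPKM in the shNC libraries, with the groups mixed (log2 change -0.01, adjusted p = 0.84). KIF4A, KIF20B, KIF23 and KIFC1 had adjusted p values between 0.39 and 0.94. The median log2 change of the 11 kinesins was 0.01.

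Kinetochore genes went both ways, with 2 higher, 2 lower and 8 that did not pass of 12 tested. The shares, 16.7% higher and 16.7% lower, lie near the 14.2% and 15.6% of all genes. CENPI, a subunit of the inner kinetochore on centromeric chromatin, was at 43.7, 41.1 and 41.6 RPKM in the shPDGFC libraries, against 38.8, 38.1 and 38.9 RPKM in the shNC libraries, with every shPDGFC library above every shNC library (log2 change 0.12, adjusted p = 0.016). CENPM, a subunit that binds CENPI, was at 23.8, 23.5 and 24.6 RPKM in the shPDGFC libraries, against 22.6, 20.1 and 20.4 RPKM in the shNC libraries, again without overlap, although shNC replicate 1 came close to the lowest shPDGFC library (log2 change 0.18, adjusted p = 0.024). Leaving out shNC replicate 2 ended the call of CENPI (adjusted p = 0.0501), and CENPM lost its call without shPDGFC replicate 1 (0.054), shPDGFC replicate 3 (0.073), shNC replicate 2 (0.066) or shNC replicate 3 (0.075).

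SPC24, a subunit of the NDC80 complex, was at 14.4, 14.1 and 13.9 RPKM in the shPDGFC libraries, against 15.6, 15.2 and 15.6 RPKM in the shNC libraries, with every shPDGFC value below the shNC range (log2 change -0.13, adjusted p = 0.013). KNL1, the scaffold on which BUB1 and BUB3 are recruited and the least abundant of the 12 listed kinetochore genes, was at 13.3, 13.3 and 13.8 RPKM in the shPDGFC libraries, against 14.7, 14.7 and 14.7 RPKM in the shNC libraries, also without overlap (log2 change -0.12, adjusted p = 0.018). Leaving out shNC replicate 3 ended the call of SPC24 (adjusted p = 0.051), and KNL1 did not pass without shNC replicate 1 (0.054), 2 (0.051) or 3 (0.053).

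Of the 4 subunits of the NDC80 complex, the main microtubule grip, SPC24 was the one that passed. NUF2 was at 37.2, 35.7 and 36.8 RPKM in the shPDGFC libraries, against 39.2, 37.9 and 38.8 RPKM in the shNC libraries, lower in every shPDGFC library and just short of the threshold (log2 change -0.08, adjusted p = 0.058). NDC80 overlapped between the groups (38.9 ± 1.9 RPKM in shPDGFC and 39.1 ± 0.86 RPKM in shNC; log2 change -0.01, adjusted p = 0.88), and SPC25 averaged 33.2 ± 2.3 RPKM in shPDGFC and 31.2 ± 0.79 RPKM in shNC, short of the threshold (log2 change 0.08, adjusted p = 0.22).

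ZWINT, which links KNL1 to the RZZ checkpoint complex, was the most abundant of the 12 at 112, 113 and 110.4 RPKM in the shPDGFC libraries, against 112, 112 and 112 RPKM in the shNC libraries, with the groups mixed (log2 change -0.01, adjusted p = 0.88). CENPA, the histone H3 variant that marks centromeres, averaged 27.5 ± 2.3 RPKM in shPDGFC and 26.9 ± 0.86 RPKM in shNC (log2 change 0.03, adjusted p = 0.74). CENPE, a kinesin of the outer kinetochore, averaged 15.4 ± 0.25 RPKM in shPDGFC and 14.6 ± 0.34 RPKM in shNC (log2 change 0.08, adjusted p = 0.077), CENPK 46.8 ± 1.8 RPKM in shPDGFC and 44.1 ± 0.94 RPKM in shNC (log2 change 0.08, adjusted p = 0.093) and CENPF 41.1 ± 1.2 RPKM in shPDGFC and 40.1 ± 0.59 RPKM in shNC (log2 change 0.03, adjusted p = 0.43). CENPE and CENPK did not overlap between the groups, with shPDGFC above, but did not pass. CENPK did pass without shPDGFC replicate 2 (adjusted p = 0.043).

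The genes of the checkpoint, the mitotic kinases and mitotic exit held both ends of the list, with 5 higher, 1 lower and 9 that did not pass of 15 tested, which is 33.3% higher and 6.67% lower against 14.2% and 15.6% of all genes. INCENP, the scaffold of the chromosomal passenger complex, fell furthest, and CDC20, which activates the anaphase-promoting complex, rose furthest.

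INCENP (ENSG00000149503; GENCODE version 29 on GRCh38, chromosome 11, 62123973 to 62153163) was at 24.6, 23.8 and 24.9 RPKM in the shPDGFC libraries, against 32.9, 31.6 and 32.2 RPKM in the shNC libraries. The libraries of each group lay close together, and the groups were well apart. Its level averaged 24.4 ± 0.54 RPKM in shPDGFC and 32.2 ± 0.64 RPKM in shNC (SD, n = 3 each), 0.758 times the shNC level. In limma the log2 change was -0.39 ± 0.027 (SE), with an adjusted p of 0.00036, and the gene had 5866 reads in shPDGFC and 8654 in shNC. The call held under all 15 alternatives, with log2 changes between -0.40 and -0.37.

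The partners of INCENP in the complex, which corrects kinetochore attachments and then directs cytokinesis, were higher or did not pass. AURKB, its kinase (chromosome 17, 8204733 to 8210600), was at 73.5, 69.4 and 70.6 RPKM in the shPDGFC libraries, against 64.2, 63.9 and 60.1 RPKM in the shNC libraries, higher in every shPDGFC library (log2 change 0.18, adjusted p = 0.0087). CDCA8, which encodes borealin, was at 26.2, 26.95 and 26.5 RPKM in the shPDGFC libraries, against 23.5, 24.3 and 22.7 RPKM in the shNC libraries, again without overlap (log2 change 0.17, adjusted p = 0.0069). BIRC5, which encodes survivin, was at 75.9, 82.4 and 73.2 RPKM in the shPDGFC libraries, against 76.7, 76.3 and 78.3 RPKM in the shNC libraries, with the groups mixed (log2 change -0.00029, adjusted p = 0.997).

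Levels of the partners are also given relative to INCENP in the same library, as a description with no test, since INCENP is the member that fell furthest and its fall alone moves each ratio up in shPDGFC. The ratio of AURKB to INCENP was 2.99, 2.91 and 2.84 in the shPDGFC libraries, against 1.95, 2.02 and 1.87 in the shNC libraries. CDCA8 to INCENP was 1.07, 1.13 and 1.07 in shPDGFC, against 0.716, 0.771 and 0.705 in shNC, so that CDCA8 exceeded INCENP in every shPDGFC library and in no shNC library. BIRC5 to INCENP was 3.09, 3.46 and 2.94 in shPDGFC, against 2.33, 2.41 and 2.43 in shNC. BIRC5 itself showed no difference past the test, so its ratio restates the INCENP values.

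**Figure D3:**
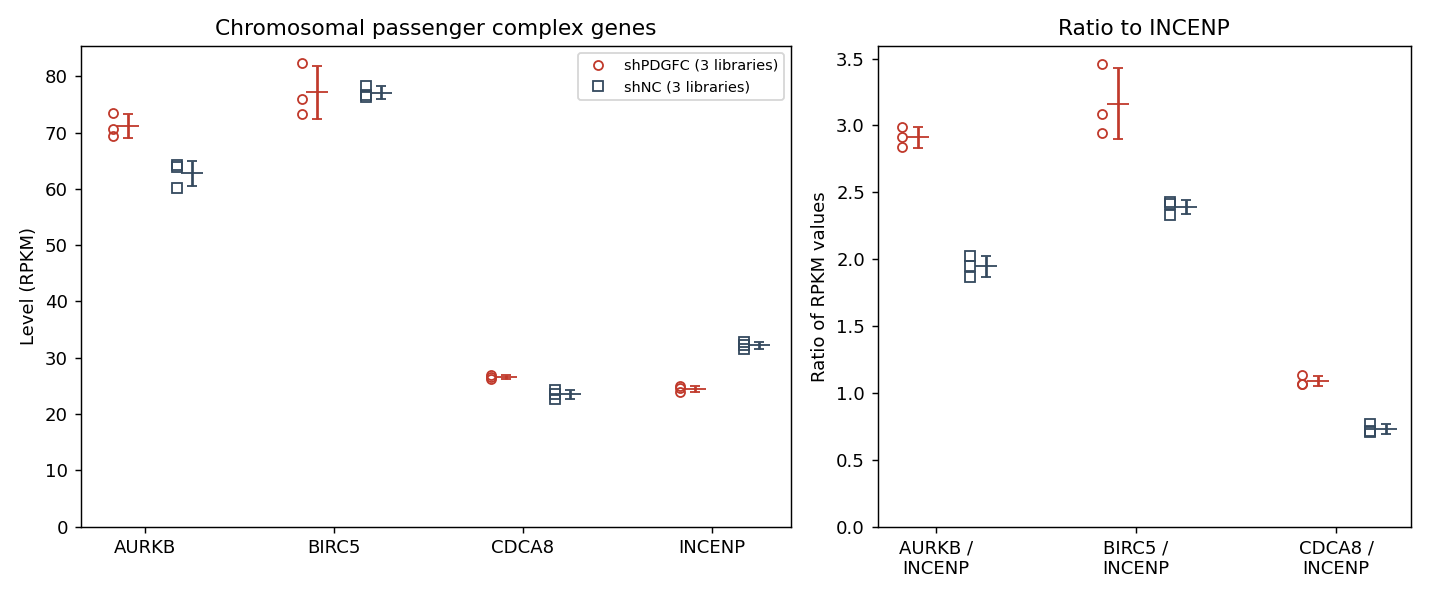
Left, level (RPKM) of the 4 chromosomal passenger complex genes in each library, with the mean and SD (n = 3) beside the points; right, the ratio of AURKB, BIRC5 and CDCA8 to INCENP in each library. INCENP is lower in all 3 shPDGFC libraries (23.8 to 24.9 RPKM) than in the shNC libraries (31.6 to 32.9 RPKM), AURKB and CDCA8 are higher, BIRC5 overlaps, and the ratios lie higher in shPDGFC through their shared denominator.

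CDC20 (chromosome 1, 43358955 to 43363203) was at 78.8, 79.3 and 74.9 RPKM in the shPDGFC libraries, against 66.9, 69.2 and 64.2 RPKM in the shNC libraries. Every shPDGFC library exceeded every shNC library. Its level averaged 77.7 ± 2.4 RPKM in shPDGFC and 66.8 ± 2.5 RPKM in shNC (SD, n = 3 each), a log2 change of 0.22 ± 0.036 (SE; limma, adjusted p = 0.0050). FZR1 (CDH1), which takes over from CDC20 late in mitosis and was the least abundant member tested, was at 8.43, 8.44 and 8.81 RPKM in the shPDGFC libraries, against 8.30, 7.996 and 7.69 RPKM in the shNC libraries, without overlap but not past the test (log2 change 0.09, adjusted p = 0.12).

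The inhibitors that hold CDC20 in the mitotic checkpoint complex showed no difference past the test. BUB1B (BUBR1) averaged 34.9 ± 1.3 RPKM in shPDGFC and 34.9 ± 1.3 RPKM in shNC (log2 change -0.00087, adjusted p = 0.99) and MAD2L1 (MAD2) 29.9 ± 1.5 RPKM in shPDGFC and 29.9 ± 0.82 RPKM in shNC (log2 change 0.00036, adjusted p = 0.996). BUB3 was at 29.6, 29.97 and 30.6 RPKM in the shPDGFC libraries, against 30.9, 31.9 and 31.1 RPKM in the shNC libraries, lower in each shPDGFC library without passing (log2 change -0.06, adjusted p = 0.13).

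Of the kinases, PLK1, the polo kinase of mitotic entry, kinetochores and cytokinesis, was at 69.3, 67.7 and 69.7 RPKM in the shPDGFC libraries, against 62.6, 66.1 and 62.3 RPKM in the shNC libraries, with every shPDGFC value above the shNC range (log2 change 0.11, adjusted p = 0.025). BUB1, which phosphorylates histone H2A at centromeres, was at 68.8, 68.2 and 69.7 RPKM in the shPDGFC libraries, against 65.05, 65.3 and 65.02 RPKM in the shNC libraries, with no overlap and little spread (log2 change 0.08, adjusted p = 0.024). TTK (MPS1), the kinase that starts checkpoint signalling, was at 45.6, 44.3 and 47.7 RPKM in the shPDGFC libraries, against 43.3, 43.2 and 43.5 RPKM in the shNC libraries, also without overlap but not past the test (log2 change 0.08, adjusted p = 0.083).

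Both kinase calls were lost when single libraries were left out. PLK1 lost its call without shPDGFC replicate 1 (adjusted p = 0.065), shPDGFC replicate 3 (0.078), shNC replicate 1 (0.081) or shNC replicate 3 (0.085), and BUB1 without shPDGFC replicate 3 (0.079), shNC replicate 1 (0.071), shNC replicate 2 (0.056) or shNC replicate 3 (0.075). TTK passed without shPDGFC replicate 2 (adjusted p = 0.041). Without shPDGFC replicate 3, shNC replicate 1 or shNC replicate 3, the 5 higher genes of this group became 3. AURKA, the spindle pole kinase, averaged 58.6 ± 1.8 RPKM in shPDGFC and 56.6 ± 1.8 RPKM in shNC (log2 change 0.05, adjusted p = 0.31).

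Genes of sister separation did not pass. PTTG1, which encodes securin, the inhibitor of separase, and was the most abundant gene of the list, was at 189.9, 186 and 194 RPKM in the shPDGFC libraries, against 195, 181 and 185 RPKM in the shNC libraries, with the groups mixed (log2 change 0.02, adjusted p = 0.64). ESPL1, separase itself, averaged 23.6 ± 0.78 RPKM in shPDGFC and 22.3 ± 0.69 RPKM in shNC (log2 change 0.08, adjusted p = 0.14). The near-identical copies of PTTG1, PTTG2 and PTTG3P, held 2 and 0 reads over the shPDGFC libraries and 1 and 0 reads over the shNC libraries.

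In the spindle and cytokinesis group 3 genes rose, 1 fell and 5 did not pass of 9 tested, which is 33.3% higher and 11.1% lower against 14.2% and 15.6% of all genes. ANLN, which encodes anillin, the scaffold of the contractile ring (chromosome 7, 36389806 to 36453791), was at 51.7, 49.8 and 50.4 RPKM in the shPDGFC libraries, against 43.1, 44.1 and 44.1 RPKM in the shNC libraries. Every shPDGFC library was above every shNC library, by more than the spread within either group. Its level averaged 50.7 ± 0.97 RPKM in shPDGFC and 43.7 ± 0.57 RPKM in shNC (SD, n = 3 each), a log2 change of 0.21 ± 0.024 (SE; limma, adjusted p = 0.0015).

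RACGAP1, the GTPase-activating part of the centralspindlin complex, was at 69.9, 69.9 and 69.5 RPKM in the shPDGFC libraries, against 64.3, 65.1 and 65.4 RPKM in the shNC libraries, without overlap (log2 change 0.10, adjusted p = 0.0090). ECT2, the exchange factor that centralspindlin recruits to activate RHOA, was at 36.3, 34.6 and 36.7 RPKM in the shPDGFC libraries, against 31.4, 33.1 and 33.3 RPKM in the shNC libraries, also without overlap (log2 change 0.13, adjusted p = 0.023). KIF23 (MKLP1), the kinesin part of centralspindlin, averaged 36.6 ± 1.0 RPKM in shPDGFC and 36.2 ± 0.67 RPKM in shNC (log2 change 0.01, adjusted p = 0.76). ECT2 lost its call without shPDGFC replicate 1 (adjusted p = 0.063), shPDGFC replicate 3 (0.074) or shNC replicate 1 (0.067).

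CKAP2L, a microtubule-associated protein of the spindle and the least abundant tested gene of this group, was at 16.8, 16.9 and 16.7 RPKM in the shPDGFC libraries, against 18.8, 19.6 and 18.01 RPKM in the shNC libraries, lower in every shPDGFC library (log2 change -0.15, adjusted p = 0.015). Its relative CKAP2 averaged 65.1 ± 1.0 RPKM in shPDGFC and 67.3 ± 1.6 RPKM in shNC (log2 change -0.05, adjusted p = 0.20). TPX2, which activates AURKA on spindle microtubules and was the most abundant gene of the group, was at 108, 103 and 105 RPKM in the shPDGFC libraries, against 109, 111 and 107 RPKM in the shNC libraries, with the groups overlapping (log2 change -0.04, adjusted p = 0.26). ASPM, a spindle pole protein, averaged 24.3 ± 0.81 RPKM in shPDGFC and 23.3 ± 0.52 RPKM in shNC (log2 change 0.06, adjusted p = 0.23), DLGAP5 (HURP) 62.1 ± 2.0 RPKM in shPDGFC and 62.98 ± 0.72 RPKM in shNC (log2 change -0.02, adjusted p = 0.64) and HMMR 68.6 ± 0.51 RPKM in shPDGFC and 68.01 ± 1.8 RPKM in shNC (log2 change 0.01, adjusted p = 0.74).

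**Figure D4:**
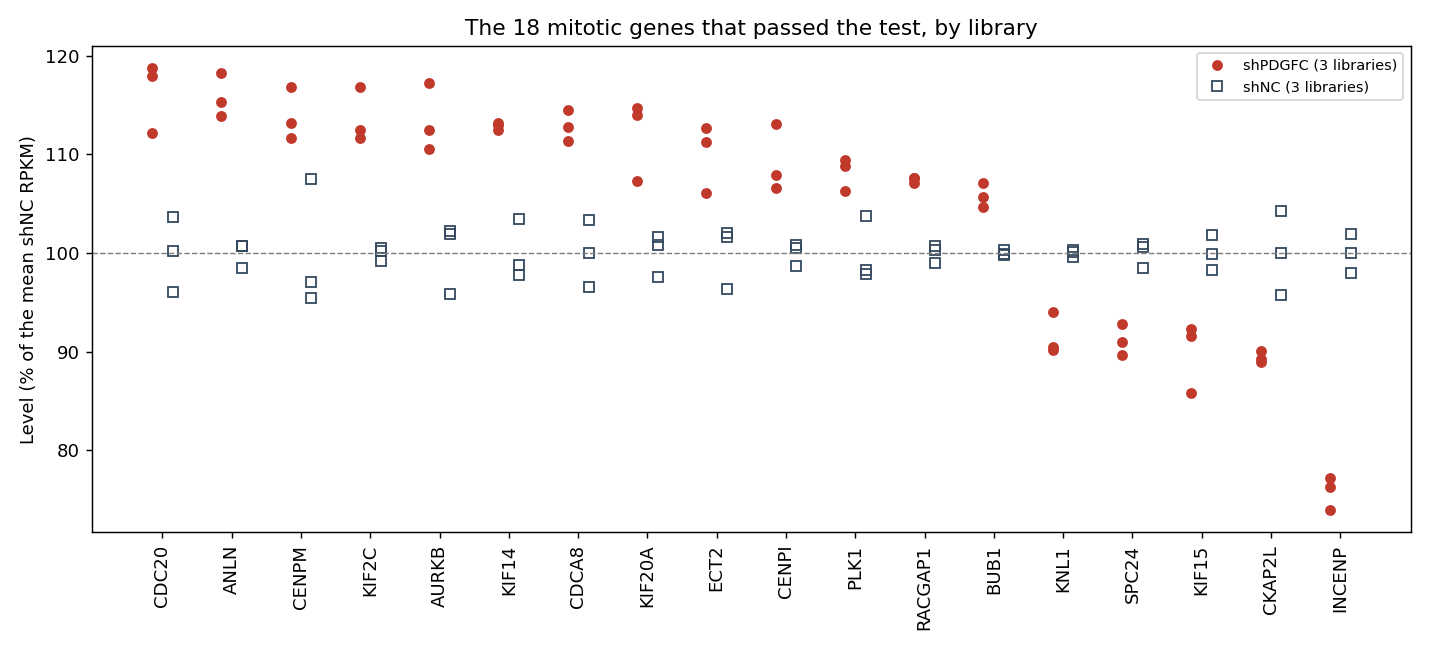
Level of the 18 genes that passed the test in each library, as a percentage of the gene's mean RPKM in shNC (dashed line at 100%), with 1 point per library (circles, shPDGFC; squares, shNC). The groups do not overlap in any of the 18, which the test itself favours; the shPDGFC libraries of INCENP lie furthest from the line, and the points of CDC20 and ANLN lie highest.

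The 2 transcription factors did not pass. MYBL2 (B-MYB) was at 145, 146 and 144 RPKM in the shPDGFC libraries, against 142, 138 and 133 RPKM in the shNC libraries, with every shPDGFC value above the shNC range (log2 change 0.08, adjusted p = 0.085). FOXM1 was at 75.1, 80.1 and 77.3 RPKM in the shPDGFC libraries, against 71.1, 75.1 and 75.7 RPKM in the shNC libraries, with the groups overlapping (log2 change 0.07, adjusted p = 0.19). FOXM1 shares 781 exon bases, 15.9% of its own, with ITFG2 on the opposite strand, which averaged 11.5 RPKM over the 6 libraries (log2 change 0.05, adjusted p = 0.34).

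Further genes outside the list, 143 in 5 lists, gave 31 higher and 18 lower of 134 tested, which is 23.1% and 13.4% against the 14.2% and 15.6% of all genes, with a median log2 change of 0.02. The 143 include 31 other kinesins and a list of 12, mainly of the MuvB core and DREAM repressor, described at the end. The shares are therefore not those of mitotic genes alone. The 31 became 20 without shNC replicate 1, and the 18 became 11 without shPDGFC replicate 3 or shNC replicate 3. Other kinesins, most of them carriers of organelles and vesicles, had 3 higher and 3 lower of 24 tested (12.5% each). KIF5C, a conventional kinesin heavy chain, was at 7.97, 7.70 and 8.13 RPKM in the shPDGFC libraries, against 11.9, 11.8 and 11.98 RPKM in the shNC libraries, log2 change -0.53, adjusted p = 0.00024, whereas its paralog KIF5B was at 80.9, 76.4 and 78.8 RPKM in the shPDGFC libraries, against 66.99, 69.5 and 68.2 RPKM in the shNC libraries, log2 change 0.20, adjusted p = 0.0027. The libraries did not overlap for either gene. KIF3A, a kinesin-2 motor, averaged 17.8 ± 0.16 RPKM in shPDGFC and 15.2 ± 0.30 RPKM in shNC (log2 change 0.21, adjusted p = 0.0019), and KIF3C 8.68 ± 0.19 RPKM in shPDGFC and 9.55 ± 0.21 RPKM in shNC (log2 change -0.12, adjusted p = 0.028). Leaving out any single library ended the call of KIF3C, with adjusted p values from 0.051 to 0.091.

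Other kinetochore genes had 5 higher and 4 lower of 29 tested (17.2% and 13.8%). SPDL1 (Spindly), which brings dynein to kinetochores, averaged 70.5 ± 2.4 RPKM in shPDGFC and 63.2 ± 0.67 RPKM in shNC (log2 change 0.16, adjusted p = 0.0074), and CENPT, which connects the inner layer to the NDC80 complex, 25.8 ± 0.59 RPKM in shPDGFC and 23.4 ± 0.25 RPKM in shNC (log2 change 0.14, adjusted p = 0.0086). CENPT shares 596 of its 5539 exon bases with TSNAXIP1 on the opposite strand, 380 with THAP11 and 110 with NUTF2. These neighbours averaged 1.97, 17.6 and 48.4 RPKM, so the level of CENPT is uncertain if counting ignored strand. CENPX, a histone-fold subunit of the inner layer, averaged 58.5 ± 2.7 RPKM in shPDGFC and 64.2 ± 0.82 RPKM in shNC (log2 change -0.13, adjusted p = 0.025). CENPX lost its call without shPDGFC replicate 1 (adjusted p = 0.058), shNC replicate 1 (0.055), shNC replicate 2 (0.070) or shNC replicate 3 (0.063).

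Other genes of the checkpoint, the anaphase-promoting complex and mitotic entry had 11 higher and 5 lower of 33 tested (33.3% and 15.2%). TRIP13, the ATPase that dismantles MAD2 complexes, was at 40.4, 39.4 and 40.8 RPKM in the shPDGFC libraries, against 32.1, 33.6 and 33.1 RPKM in the shNC libraries (log2 change 0.28, adjusted p = 0.0008), and CCNB1, cyclin B1, at 99.8, 99.04 and 96.2 RPKM in the shPDGFC libraries, against 82.2, 77.6 and 81.01 RPKM in the shNC libraries (log2 change 0.29, adjusted p = 0.00096). Each was higher in all 3 shPDGFC libraries, by more on the log2 scale than any member of the list that rose. CDC26, a subunit of the anaphase-promoting complex, was at 25.1, 21.97 and 23.6 RPKM in the shPDGFC libraries, against 29.9, 30.4 and 28.6 RPKM in the shNC libraries (log2 change -0.32, adjusted p = 0.0035), lower in all 3. Its exons share 208 of 1175 bases with PRPF4 on the opposite strand, so its level is uncertain if counting ignored strand. SGO2, a protector of centromeric cohesin, averaged 20.3 ± 0.16 RPKM in shPDGFC and 22.1 ± 0.53 RPKM in shNC (log2 change -0.12, adjusted p = 0.015). Leaving out shNC replicate 1 ended the call of SGO2 (adjusted p = 0.051).

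Other spindle and cytokinesis genes had 11 higher and 4 lower of 36 tested (30.6% and 11.1%). MAPRE1 (EB1), which tracks growing microtubule ends, averaged 133 ± 1.1 RPKM in shPDGFC and 116 ± 2.1 RPKM in shNC (log2 change 0.20, adjusted p = 0.0016), and MYH9, a non-muscle myosin heavy chain that drives ring contraction, 58.7 ± 1.4 RPKM in shPDGFC and 52.4 ± 0.23 RPKM in shNC (log2 change 0.16, adjusted p = 0.0034). CDK5RAP2, a centrosome protein, averaged 26.4 ± 0.78 RPKM in shPDGFC and 30.8 ± 0.57 RPKM in shNC (log2 change -0.21, adjusted p = 0.0026), and the septin gene SEPTIN2 207 ± 1.9 RPKM in shPDGFC and 227 ± 1.8 RPKM in shNC (log2 change -0.13, adjusted p = 0.0050). The groups did not overlap in any of these 4 genes.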

How the data were processed

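RNA-seq was analysed in 3 shPDGFC and 3 shNC libraries, grouped by the sample titles and genotype labels. The deposited table holds 1 value per gene and library for 60664 human Ensembl identifiers, and its header names no unit. From the values it is RPKM as made by the authors: all 37040 genes with a value gave whole reads in fixed steps (tolerance 1e-07), and the recovered reads made up 99.4 to 99.5% of the totals the steps imply. The submitters' processing notes name the builds GRCm38 and mm10, although every identifier is human. The aligner, counter and annotation were not given in the sources used here, nor whether counting used strand. Identifiers were matched to GENCODE version 29 on GRCh38 for 58396 genes.

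From there, log2(RPKM + 1) was fitted with limma 3.58.1 (R 4.3.3) with a mean-variance trend, over the 15337 genes that reached 1 RPKM in 3 or more libraries, without a replicate block, and p-values were adjusted by Benjamini-Hochberg over all of them. Fold changes on this scale understate those of low genes. The script was tested on simulated data. Ratios between members were computed for 9 pairs chosen with results known, and the 3 to INCENP are given as a description, with no test. Values in each library are given for members past the threshold and for the most and least abundant member of each role group, and other members were named for their role after their values were seen. Of each further list, the 2 higher and 2 lower genes with the smallest p are named, except 1 that is not reported here. The members and lists were chosen with earlier results of these data known. Alternatives were pseudocounts of 0.1 and 0.5, other filters, upper-quartile and median-of-ratios scaling, no trend, limma-voom on the recovered reads, a replicate block and leaving out each library. Counts between libraries of 1 group differed beyond sampling noise (chi-square per degree of freedom 1.46 to 2.57), so none was counted as a duplicate.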

Additional observations from a re-analysis of the deposited data

How the results depend on the processing

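Of the 18 members past the threshold, KIF2C, KIF14, KIF20A, AURKB, INCENP, CDCA8, CDC20, CKAP2L, ANLN and RACGAP1 kept their call under all 15 alternatives. All 18 kept it under both other pseudocounts, the filter at an RPKM of 3, both other scalings and limma-voom on the recovered reads, which called 2717 genes higher and 3055 lower in shPDGFC. Without a filter on low values CENPM, ECT2 and PLK1 lost it, and without the trend BUB1 and PLK1. CENPE, TTK, ESPL1 and MYBL2 passed with limma-voom, MYBL2 with median-of-ratios scaling, and NUF2 with upper-quartile scaling and the filter at 3. The transcription factors higher in shPDGFC thus became 1 under median-of-ratios scaling and 1 with limma-voom. Without a filter on low values, the kinetochore genes higher became 1, and the further genes 20 higher and 10 lower. Without the trend, the checkpoint genes higher became 3.

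Replicate numbers did not pair the libraries: deviations from the group means correlated at -0.10, -0.11 and -0.02 between libraries of the same number. With the replicate block 13 of the 18 members kept their call (BUB1, ECT2, KIF15, KNL1 and PLK1 did not), with 10 members higher and 3 lower in all. The block gave 0 kinesins lower, 1 kinetochore gene lower, 3 checkpoint genes higher and 11 further genes lower.

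Leaving out each library in turn gave 9 to 15 members higher and 2 to 5 lower, and 0 to 1 kinesins lower. It also gave 0 to 3 kinetochore genes higher and 0 to 2 lower, and 3 to 6 checkpoint genes higher. Of the further genes, 20 to 27 were then higher and 11 to 14 lower. The median log2 change of the kinesins lay between -0.0091 and 0.0278 over the alternatives and that of the spindle and cytokinesis genes between -0.0012 and 0.034, so neither has a settled sign. PRC1 and NUSAP1, with 7 to 13 reads in their shallowest libraries, allow no statement on a change.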

Other observations

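A list of 12 mainly held genes of the MuvB core and DREAM repressor, which bind the CHR and E2F letters of mitotic promoters. The 12 genes, also counted among the 143 further genes above, include MYBL1, which is part of neither. Of these, 1 was higher and 2 were lower in shPDGFC, which is 8.33% and 16.7% against the 14.2% and 15.6% of all genes, with a median log2 change of -0.03. RBBP4, a histone-binding subunit of the MuvB core, was at 41.9, 42.1 and 41.8 RPKM in the shPDGFC libraries, against 38.4, 38.2 and 38.1 RPKM in the shNC libraries (log2 change 0.13; limma, adjusted p = 0.0040). RBL1, which encodes the pocket protein p107, was at 11.6, 11.5 and 11.9 RPKM in the shPDGFC libraries, against 13.5, 13.3 and 12.6 RPKM in the shNC libraries (log2 change -0.16; limma, adjusted p = 0.014). TFDP1, the dimer partner of E2F proteins, was at 68.1, 67.2 and 66.7 RPKM in shPDGFC, against 71.2, 73.4 and 73.3 RPKM in shNC (log2 change -0.11; limma, adjusted p = 0.012). The groups did not overlap for any of the 3.

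Both CHR-type and CCAAT letters stood in 26 of the 42 member promoters (61.9%), against 9.49% of all 27305 promoters, and 20 of 42 (47.6%) held at least 2 CCAAT matches, against 11.3% of all.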
